A study of Mus musculus with 2 samples.

Results

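The BCL2 family regulators described here are 10 genes of the mitochondrial route to apoptosis, among 20852 genes measured on both arrays. The 10 genes were picked by name, with earlier results of these data known. They are the survival genes Bcl2, Bcl2l1 and Mcl1, the effector genes Bax and Bak1, and the BH3-only genes Bad, Bid, Bcl2l11, Bbc3 and Pmaip1. All 10 were on the array, with 19 probes, and all 19 probes were well above background on both arrays. The tumours were grown under the skin of C57BL/6 mice from injected Panc02 cells, a mouse pancreatic carcinoma line. From 3 weeks of age the mice lived in a standard environment, ordinary laboratory caging, or in an enriched environment, housing with more room for activity and stimulation. Tumours were taken 5 weeks after injection. For each housing, RNA of 6 mice's tumours went into a single pool, called the standard pool and the enriched pool, and each was hybridised to 1 one-colour Agilent mouse expression array. Without replicates a difference has no replicate check and no test. Every value describes these 2 pools, and the spread between mice is unknown.

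Apoptosis through mitochondria is set by contacts between members of this family. BAX and BAK1 form pores in the outer mitochondrial membrane, and cytochrome c leaves through them and starts the caspase cascade. BCL2, BCL-XL (the main product of Bcl2l1) and MCL1 hold the effectors and the BH3-only proteins in check. BH3-only proteins carry the short BH3 helix as their shared part. They respond to stress signals by blocking the survival proteins or by switching the effectors on. Much of this control acts on the proteins, through binding, phosphorylation, cleavage and turnover, and transcript levels do not show it.

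Among the 10 genes, the largest differences were in BH3-only genes. Pmaip1, which encodes NOXA, was 3.31-fold higher in the enriched pool, Bid was 1.56-fold and Bad 1.54-fold higher, while Bbc3 and Bcl2l11 lay at about the same level in both pools. Of the effectors Bax was 1.33-fold higher. Of the survival genes Bcl2 was 1.24-fold and Mcl1 1.14-fold higher, and Bcl2l1 lay at about the same level in both pools in the mean over its probes. By class, the median log2 differences, enriched minus standard, were 0.63 for the BH3-only, 0.20 for the effector and 0.19 for the survival genes, beside 0.03 for all measured genes. Only Pmaip1, 1 of the 10 genes, was at least 2-fold apart, and it was higher in the enriched pool. Among all measured genes 5.71% lay 2-fold or more up, 9.46% 2-fold or more down and 15.2% past 2-fold in either direction. A count of 1 in 10 lay below the share for either direction and above the upward share. A single gene gives no reading about the family as a whole. In all, 6 members were higher and 4 lower, where 52.3% of all genes were higher. The 4 lower members lay within 0.03 of 0, and with median scaling or without scaling all 10 were higher, beside 56.2% and 74.4% of all genes.

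**Figure D1:**
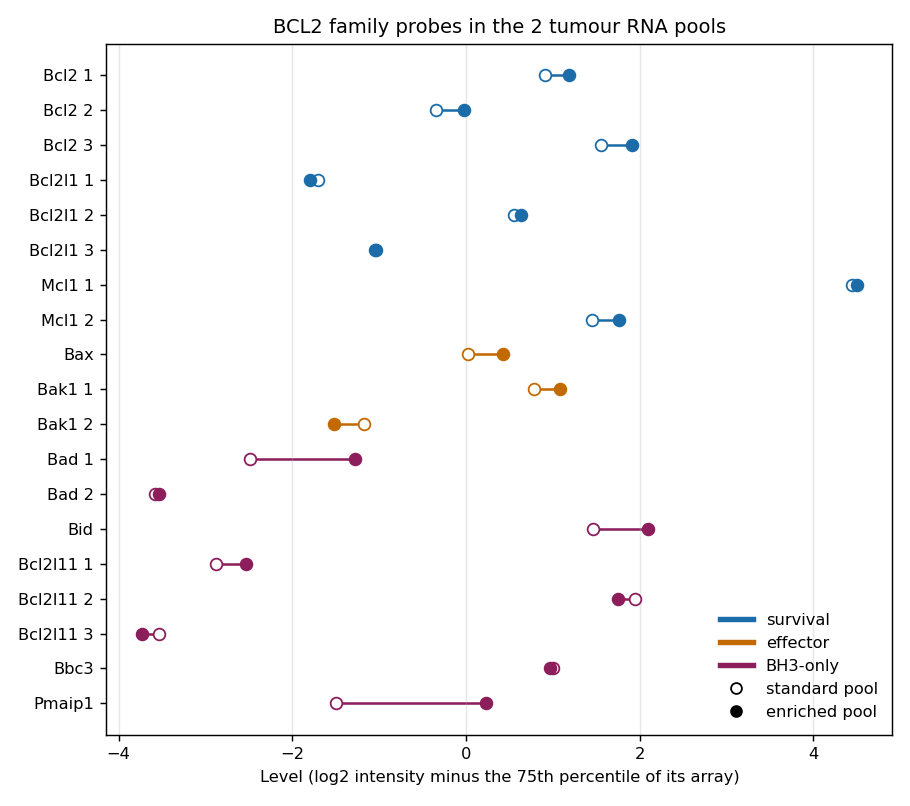
Levels of the 19 probes of the 10 BCL2 family genes, as log2 intensity minus the 75th percentile of the array, in the standard (open circles) and the enriched pool (filled circles), coloured by class; probes of 1 gene are numbered by probe name. The longest lines belong to Pmaip1, from -1.50 to 0.23, and to the first probe of Bad, from -2.49 to -1.28.

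A level below is a log2 intensity minus the 75th percentile of all non-control spots of the same array, and a difference is the enriched minus the standard environment level. The 75th percentile was 753 on the array of the standard pool and 984 on the other, so leaving out this scaling adds 0.39 to every difference. With the scaling 1190 genes lay 2-fold or more up and 1972 that far down. Without it the counts were 2904 and 1211, and the median of all genes was 0.42 in place of 0.03. The scanner software attaches an error to each spot, close to 0.20 on the log2 scale for most member differences. It covers the array measurement alone and not the spread between mice. By that measure, 11 of the 19 member probes differed by more than their own error, and so did 69.3% of all measured probes. Levels of different probes are not compared, because probes differ in how brightly they bind.

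Markers of several cell types differed between the pools, and the family was read from whole tumour tissue. All 10 skeletal muscle markers were lower in the enriched pool by 2-fold or more, with a median difference of -7.91, and their share of the summed signal was 3.36% in the standard against 0.0926% in the enriched pool. All 8 carcinoma epithelium markers lay past 2-fold upward, with a median of 2.10 and shares of 0.206% and 0.902%. The 5 measured erythroid markers had a median of -5.72. Epb4.2 and Ahsp, also on that list, were not well above background on both arrays. Fibroblast markers split, with 4 past 2-fold upward and 3 downward. In bulk tumour RNA, fewer cells of a type and less RNA per cell cannot be told apart, and the part of these mixtures in the values of the family was not tested.

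**Figure D2:**
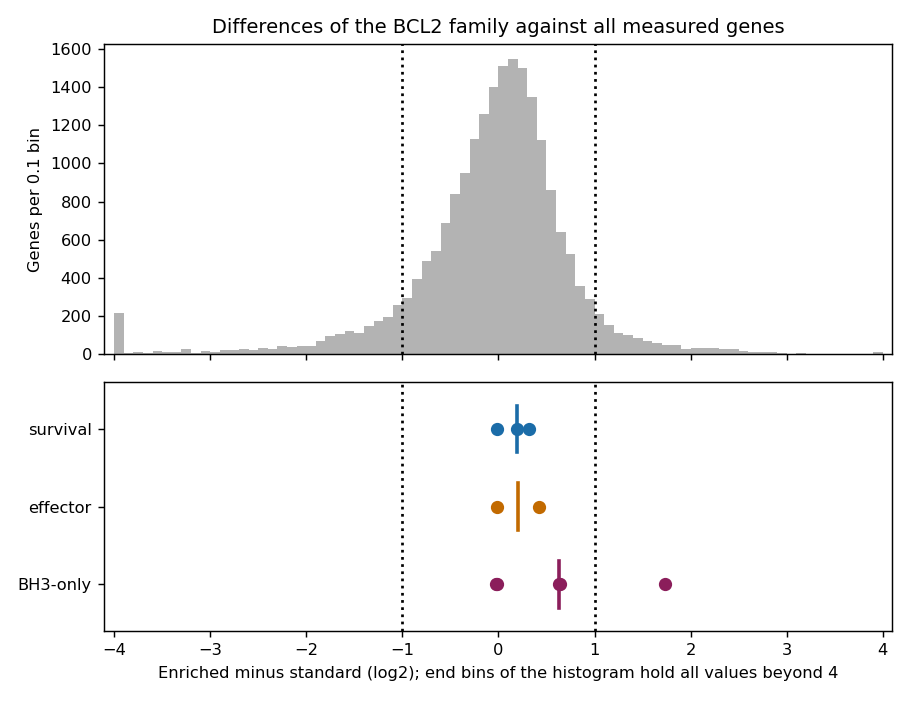
Upper panel, number of genes per bin of 0.1 in the log2 difference, enriched minus standard, for all 20852 measured genes; lower panel, the 10 members by class (points) with the class median (vertical bar). Dotted lines mark 2-fold; 6 members lie within the quartiles of all genes, -0.40 and 0.38, and Pmaip1 at 1.73 is the only member past 2-fold.

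Bcl2 was higher in the enriched pool at each of its 3 probes. Bcl2 encodes the founding survival protein of the family, which guards the outer mitochondrial membrane. The probe for transcript variant 1 (mm7 chromosome 1, 106438098 to 106438157, minus strand) was printed 10 times on each array, so its spots show the scatter within an array. Its 8 usable spots in the standard pool ran from 1.51 to 1.60 with a median of 1.56. Its 9 usable spots in the enriched pool ran from 1.80 to 1.98 with a median of 1.91. The spots of the 2 pools did not overlap, and their means differed by 0.35. Such a gap was common: among 244 probes with at least 8 usable spots on each array, 65.2% had spots that did not overlap and 38.1% did so with the enriched pool higher, so the gap shows a measurable difference between these arrays and nothing particular to Bcl2. The probe for transcript variant 2 (106612249 to 106612308) went from 0.91 to 1.19 and the third probe (106610589 to 106610648) from -0.34 to -0.02. The differences of 0.28, 0.32 and 0.35 gave a mean of 0.32 with an SD between probes of 0.04, so probes for both variants moved alike. Of all measured genes, 29.4% were at least as far up.

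Bcl2l1 gave the contrast to Bcl2 within the same class. Its main product BCL-XL is the survival protein that many epithelial tumours lean on. The repeated probe (mm7 chromosome 2, 152521752 to 152521811) had 10 usable spots from 0.47 to 0.64, median 0.56, in the standard pool and 10 from 0.51 to 0.72, median 0.62, in the enriched pool. These spots overlapped over most of their range, and the difference of 0.07 was about as large as the spot SDs of 0.06 and 0.08. Taken position by position, most spots read slightly higher in the enriched pool, so the SDs do not show that this probe was equal in both. The other 2 probes (152570306 to 152570365 and 152570851 to 152570910) differed by 0.01 and -0.10. The mean over the gene was -0.01 (SD between probes 0.09), and its sign turned in 4 of 12 alternative processings, so no direction is given.

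Mcl1 was read by 2 probes that differed in size. It encodes a survival protein with a very short life, so its amount depends on steady synthesis and on breakdown by the proteasome. The first probe (mm7 chromosome 3, 95536882 to 95536941) read 4.44 against 4.50, standard before enriched, a difference of 0.06 that lay inside its software error of 0.20. The other probe (95535570 to 95535629) went from 1.45 to 1.76, a difference of 0.31. The mean was 0.19, with an SD of 0.17 between these probes that was nearly as large as the mean. The enzymes that add or remove the ubiquitin marking MCL1 for breakdown, Huwe1, Fbxw7, Btrc and Usp9x, differed by -0.08 to 0.12, with 1 of 4 higher and none at least 2-fold apart. Among all measured genes 52.3% were higher and 15.2% at least 2-fold apart, and 4 genes are too few to set against these shares. Huwe1, a ubiquitin ligase, differed by 0.12, Fbxw7, the substrate-binding part of another ligase, by -0.08, and Usp9x, which removes ubiquitin, by -0.07. The sign of each of these 3 turned in 1 of 12 alternatives.

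**Figure D3:**
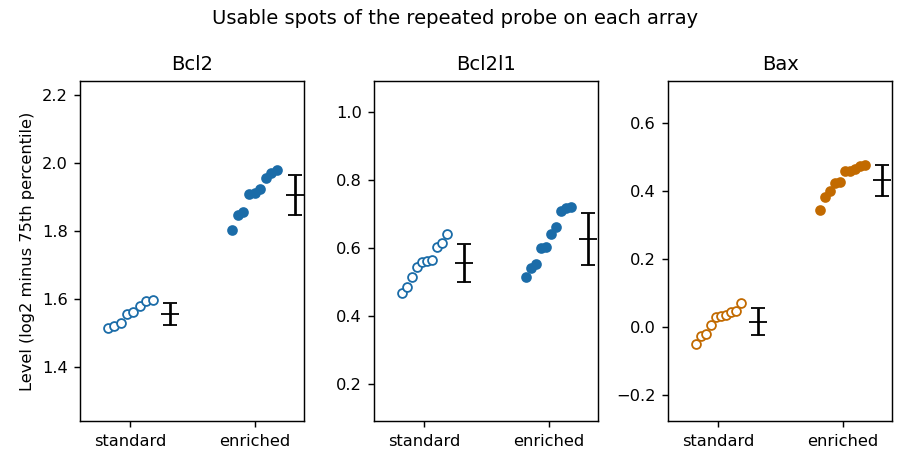
Levels (log2 intensity minus the 75th percentile of the array) of the usable spots of the probes printed 10 times for Bcl2, Bcl2l1 and Bax, in the standard (open) and enriched pool (filled), ordered by value; the black bars give mean and SD over spots of 1 array, not over mice. The pools are separate for Bcl2 and Bax, as for 65.2% of the 244 probes with at least 8 usable spots on each array, and overlap for Bcl2l1.

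The effectors differed from each other. Bax, whose protein moves from the cytosol into the mitochondrial membrane to build the pore, was also read by a probe printed 10 times (mm7 chromosome 7, from 41641827 to 41641982, minus strand). Its footprint covered 156 bases of the genome, where 16 of the 19 member probes covered 60. The 10 spots ran from -0.05 to 0.07, median 0.03, in the standard pool and from 0.34 to 0.48, median 0.44, in the enriched pool. They did not overlap, and the difference was 0.42 with spot SDs of 0.04 in both pools. Of the 244 probes with at least 8 usable spots on each array, 65.2% had no overlap, 38.1% with the enriched pool higher. The gap is thus nothing particular to Bax. Of all measured genes 23.2% were at least as far up. Bak1, whose protein sits in the membrane all the time, had 2 probes that disagreed. The first went from 0.78 to 1.08 (mm7 chromosome 17, 25204734 to 25204793) and the second from -1.18 to -1.52 (25205887 to 25205946). Differences of 0.31 and -0.34 both exceeded the software error of 0.20, and they cancel in the mean of -0.02 (SD between probes 0.45). Its sign turned in 5 of 12 alternatives, among them the brightest probe alone at 0.31, so these arrays give no direction for Bak1.

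The Bax start region is shown because Bax is a textbook target of the p53 transcription factor and alone held a p53 half-site among the 9 members whose promoter was searched. The stretch is the 250 bases before the RefSeq start on GRCm38.p6, chr7:45466899-45467148 (minus strand), from 5′ to 3′. Capitals mark matches to the motifs listed further on, here a p53 half-site, a pair of SP1 boxes on opposite strands and the E-box of MYC next to the start.
Bax: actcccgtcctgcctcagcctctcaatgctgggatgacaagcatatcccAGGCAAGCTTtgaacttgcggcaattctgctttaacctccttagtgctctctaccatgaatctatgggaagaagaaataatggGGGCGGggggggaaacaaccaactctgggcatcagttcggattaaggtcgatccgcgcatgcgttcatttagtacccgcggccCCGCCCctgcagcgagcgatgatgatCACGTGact
A p53 half-site was found in 7.17% of 27018 promoters of the same length and the E-box in 6.04%. A match gives letters in a window and is not a measured binding site.

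Pmaip1 differed most among the 10 genes. Its product NOXA binds MCL1 above all and sends it to breakdown. The single probe read a processed intensity of 267 in the standard pool against 1153 in the enriched pool. After scaling this was a level of -1.50 against 0.23, a difference of 1.73 with a software error of 0.20. Only 382 genes, 1.83% of those measured, were at least as far up. The gene stayed past 2-fold in all 12 alternative processings, between 1.46 and 2.11. All of them reuse the same spot, and several, such as the brightest probe or the median of probes, cannot change a gene with 1 probe. The count is therefore no separate check. With 1 probe printed once on each array, the difference could not be checked against a second probe or spot.

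Bid and Bad were also higher, Bad with a probe that needs care. Bid encodes the link from death receptors to mitochondria, since caspase-8 cuts it into its active form. Its single probe (mm7 chromosome 6, 120918747 to 120918806, minus strand) went from 1.46 to 2.10, a difference of 0.64, and 13.2% of genes were at least as far up. Bad encodes a BH3-only protein that growth factor signalling silences by phosphorylation. Its RefSeq probe (mm7 chromosome 19, 6761992 to 6762051) lay on the plus strand, like the gene, and went from -2.49 to -1.28, a difference of 1.21 or 2.32-fold. The second probe (6770968 to 6771027), designed on a RIKEN clone, lay on the minus strand, opposite to the gene. It was dim, at -3.58 and -3.54, and differed by 0.04. Of 18228 probes named through a RefSeq accession, 99.5% lay on the strand of their gene, and of 5044 named by the array's design, as this probe was, 96.1% did. The mean of both probes was 0.63 (SD between probes 0.83), and without the opposite-strand probe, an alternative chosen after seeing the data, Bad joined Pmaip1 past 2-fold. The RefSeq probe was itself dim, with processed intensities of 134 and 406, and the normexp background model brought the mean of both probes down to 0.36.

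Bbc3 and Bcl2l11 lay near 0 in the mean over their probes. They encode PUMA and BIM, the BH3-only proteins that bind every survival member, and are textbook targets of p53 (Bbc3) and of FOXO factors (both). Bbc3 went from 1.0 to 0.97 (mm7 chromosome 7, 14080459 to 14080518). This difference of -0.03 was far inside the software error of 0.20 and turned sign in 2 of 12 alternatives. Bcl2l11 had 3 probes. The first (mm7 chromosome 2, 127903168 to 127903227) went from 1.95 to 1.75. A probe whose footprint spans 11096 bases of the genome, far more than its own length, went from -2.88 to -2.53, and the third, designed on a cDNA clone and spanning 682 bases, from -3.54 to -3.73. The differences of -0.20, 0.35 and -0.19 did not share a sign, and their mean of -0.01 (SD between probes 0.31) turned sign in 4 of 12 alternatives. Different probes of Bcl2l11 read different stretches of its several transcripts, and what each variant did cannot be told from these probes.

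The start regions of Bad, Bid and Bcl2l11 are set side by side because the first 2 were higher and the last was not. Each is the 250 bases before the most upstream RefSeq start on GRCm38.p6, from 5′ to 3′, at chr19:6941611-6941860 (plus strand), chr6:120916825-120917074 (minus strand) and chr2:128125788-128126037 (plus strand). Capitals mark motif matches: SP1 boxes in all of them, and in Bcl2l11 also a FOXO site near the 5′ end and a CCAAT box on the opposite strand.
Bad: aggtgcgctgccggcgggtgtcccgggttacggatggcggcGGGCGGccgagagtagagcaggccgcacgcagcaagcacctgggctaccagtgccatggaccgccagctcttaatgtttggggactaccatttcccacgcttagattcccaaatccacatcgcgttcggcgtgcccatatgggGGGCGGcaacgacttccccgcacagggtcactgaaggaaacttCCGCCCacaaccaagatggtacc
Bid: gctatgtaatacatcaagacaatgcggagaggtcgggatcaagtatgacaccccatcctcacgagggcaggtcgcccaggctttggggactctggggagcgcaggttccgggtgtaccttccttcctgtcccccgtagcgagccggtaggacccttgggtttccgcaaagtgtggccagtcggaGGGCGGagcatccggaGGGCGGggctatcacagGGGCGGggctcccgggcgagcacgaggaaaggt
Bcl2l11: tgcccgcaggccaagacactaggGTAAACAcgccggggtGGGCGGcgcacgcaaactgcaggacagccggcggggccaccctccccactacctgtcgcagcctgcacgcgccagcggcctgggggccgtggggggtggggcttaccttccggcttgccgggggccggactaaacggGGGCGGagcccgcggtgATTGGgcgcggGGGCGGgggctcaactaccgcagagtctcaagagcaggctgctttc
The motifs searched on both strands were the SP1 box GGGCGG, the CCAAT box, the MYC E-box CACGTG, the E2F sites TTTCCCGC and TTTGGCGC, the FOXO site GTAAACA, the CRE TGACGTCA, the AP-1 site TGANTCA, the p53 half-site and the NF-kB site. RefSeq promoters were matched for 9 of the 10 members, all but Pmaip1. The promoter set used here left out the chromosome of the Pmaip1 probe. The SP1 box was present in 7 of the 9 members and in 33.0% of the 27018 promoters searched, with 3 matches each in Bad, Bid and Bcl2l11. It was thus found in members with differences of 0.64 and of -0.01 alike. The FOXO site was found in Bcl2l11 alone among members and in 3.06% of all promoters, and the NF-kB site in Bbc3 alone and in 3.74%. The 9 windows held from 8 to 36 CpG dinucleotides, where the median promoter held 6. None of the 9 had a CRE, an AP-1 or an E2F match, which says only that these letters are not in this window.

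Set against the survival genes, the BH3-only median lay 0.44 higher and the effector median 0.01 higher. The BH3-only class was split: Pmaip1, Bid and Bad lay above each survival gene, while Bcl2l11 and Bbc3 lay below Bcl2 and Mcl1 and beside Bcl2l1, near 0. Of the 15 pairings of a BH3-only with a survival gene, 9 had the higher difference in the BH3-only gene, and 9 or 10 did in each alternative. Several alternatives could not change this order. Median scaling and no scaling shift every difference by the same amount, and keeping dim probes or non-uniform spots left the members' values unchanged. The gap between these class medians ran from 0.13, with the normexp background model, to 0.57 over the alternatives. A class of 2 to 5 genes read on 1 array per pool carries no test, and the class medians are a description.

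**Figure D4:**
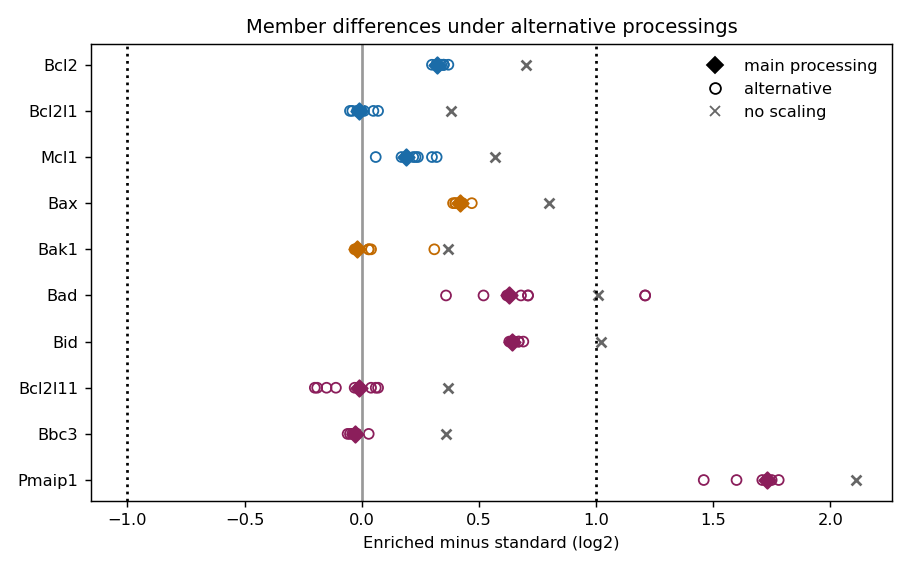
Differences of the 10 members (log2, enriched minus standard) under the main processing (diamonds), 11 alternatives (open circles) and no scaling between arrays (crosses). Pmaip1 stays past the dotted 2-fold line throughout, Bad crosses it where its RefSeq probe stands alone (1.21) and without scaling (1.01), Bid crosses it without scaling (1.02), and Bcl2l1, Bak1, Bcl2l11 and Bbc3 lie on both sides of 0.

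Of 12 measured genes of the wider family outside the 10, 2 lay past 2-fold, where 15.2% of all genes did. Bok, which encodes an effector-like protein, went from 2.26 to 4.09 at its single probe, a difference of 1.83 or 3.57-fold, larger than that of Pmaip1. Bnip3, an atypical BH3 gene of mitophagy induced by low oxygen, went from 3.43 to 2.17, a difference of -1.25 that was -0.87 without scaling. Among 8 measured BH3-only and related genes, which include Bcl2l12, Bcl2l13 and Bcl2l14 although these are not BH3-only in the strict sense, 4 were higher and 4 lower, with a median of -0.07. Bmf, a BH3-only gene tied to loss of attachment, differed by -0.55 and Hrk, a BH3-only gene of neurons, by -0.49. Hrk was very dim, with levels of -5.03 and -5.52 and a software error of 0.33. It differed by only -0.18 in the authors' deposited log2 table. The other survival genes were all slightly higher, where 52.3% of all genes were: Bcl2a1c by 0.32, Bcl2a1b by 0.29 and Bcl2l2 by 0.19. The Bcl2a1 genes are near-identical copies, so a probe of a copy can bind transcripts of the others. Bcl2l10 was well above background only in the enriched pool, at least 1.62-fold brighter there. Its single probe was very dim even there, at -4.99, and the bound leaves out its software error of 0.42.

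Genes of proteins that leave mitochondria once the pores open had a median difference of -0.45. Of these 5 genes, 2 lay past 2-fold, both lower in the enriched pool, beside 9.46% of all genes. Cycs, cytochrome c, which is also an electron carrier of respiration, went from 4.47 to 2.44, a difference of -2.03 over 3 probes. Endog, a mitochondrial nuclease, went from 1.65 to -0.48, a difference of -2.13. Aifm1, a mitochondrial flavoprotein, differed by -0.45. The muscle markers lay lower by a median of -7.91 in the same pool, and their part in the Cycs and Endog values was not tested. In the apoptosome and caspase list, which is not limited to steps after the pores, all 7 genes were higher, where 52.3% of all genes were. None was higher by 2-fold, and the median was 0.64. The 7 genes were led by Casp2 at 0.72, by Casp8, the protease that cuts BID, at 0.70 and by Casp6 at 0.66. Casp9, the caspase of the apoptosome, was counted as higher at 0.03, inside its software error of 0.20. The inhibitor of apoptosis genes had a median of 0.13, with 4 of 7 measured higher, close to that share of all genes. Birc5, survivin, a gene that follows cell division, differed by 0.64, Xiap by 0.47 and Naip2 by -0.41. The Xiap value was 0.05 with the normexp background model, and its level was low, -3.45 and -2.99.

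**Figure D5:**
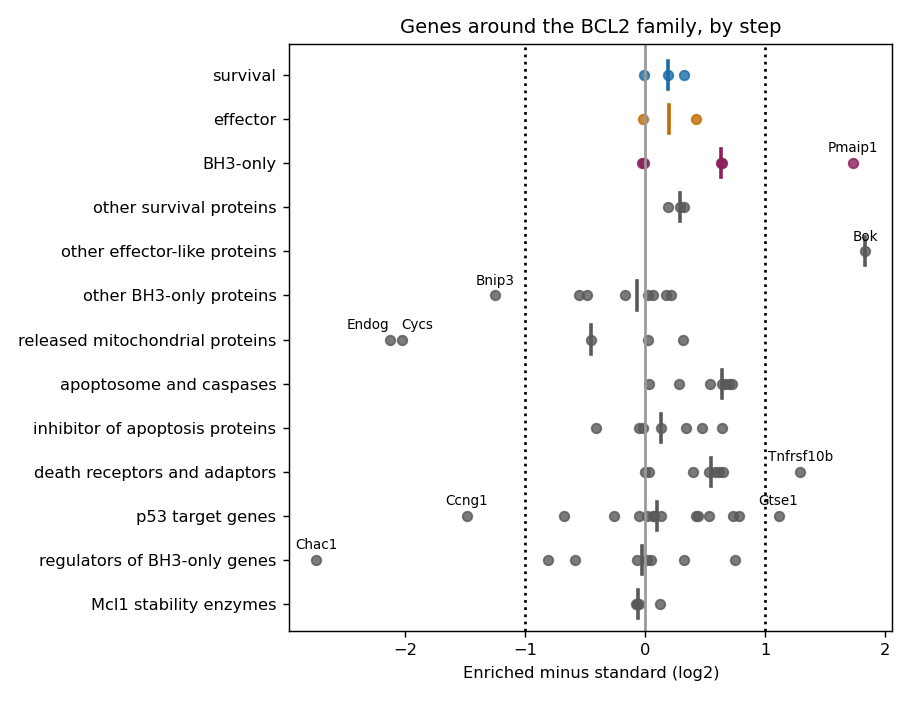
Differences (log2, enriched minus standard) of single genes (points) and the median (vertical bar) for the members by class and for the lists around them, with genes at least 2-fold apart named. Pmaip1, Bok and Tnfrsf10b lie at or above 1.29, and Chac1, Endog and Cycs at or below -2.03.

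Genes upstream of the family, and targets of its regulators, differed in both directions. In the list of death receptors and adaptors 7 of 8 genes were higher, with a median of 0.55, where 52.3% of all genes were higher. Fas, counted as higher at 0.03, had 2 opposed probes at -0.42 and 0.47. Tnfrsf10b, the receptor for the death ligand TRAIL, went from -3.03 to -1.74, a difference of 1.29 over 3 probes that ranged from 1.27 to 1.31. It was at 0.91 with the normexp background model. Fasl differed by 0.65 and the adaptor gene Tradd by 0.61, and Fasl was at 0.17 with the normexp model. The p53 target list, which leaves out the members, had a median of 0.10, with 10 of 14 genes higher. Its largest differences ran both ways, Ccng1, a cyclin-like gene, at -1.49, Gtse1, a gene of the G2 and mitotic phases, at 1.11 (0.83 with the normexp model) and Perp, a desmosome gene, at 0.78. The cell cycle inhibitor gene Cdkn1a differed by 0.73 and Mdm2 by 0.06; both were picked out after their values were seen. A list of 8 genes held regulators of BH3-only genes together with targets of such regulators. Chac1, a target of the stress factors ATF4 and CHOP and not itself such a regulator, went from 2.18 to -0.56, a difference of -2.74. Ddit3, which encodes CHOP, differed by -0.81 and E2f1 by 0.75, and 4 of the 8 genes were higher.

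Blood and stromal cells also carry these genes, and their markers moved in different directions. For scale, 52.3% of all measured genes were higher in the enriched pool. The T cell markers, of cells in which Bcl2 is well known, had a median of 0.20 with 4 of 8 measured higher and shares of the summed signal of 0.00634% and 0.00926%. The B cell markers had a median of -0.10 over 4 measured genes, with Pax5 and Blk not well above background on both arrays. Macrophage markers had a median of 0.34, with 5 of 7 higher, mast cell markers one of 1.26, with 5 of 6 higher, and endothelial markers one of -0.85, with all 6 lower. Neutrophil markers had a median of -1.33 over 5 measured genes, with 3 past 2-fold downward and Cxcr2 past it upward at 1.44. Elane, Camp and Ngp were not well above background on both arrays. Their part in the differences of Bcl2, Mcl1 and Pmaip1 was not tested.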

How the data were processed

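Each pool of total RNA from 6 tumours was labelled with Cy3, per the labels' protocols, and read on 1 array. The deposited scanner files hold a linear intensity per spot written by version 10.7.1.1 of Agilent's Feature Extraction, as the submitters' processing notes have it. The software, per the file headers, subtracted background and removed spatial trends, which changes dim spots more than bright ones, and marked outlier spots. A deposited log2 table of 30319 probes, whose scaling by the authors the sources used here do not give, was an alternative only. It correlated with the scanner values across probes at r = 1.00 on both arrays, and its medians were 8.54 and 8.56, so its scale and direction are known and its centring is not.

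From the intensity, log2 was taken and the 75th percentile of 43379 non-control spots subtracted. Outlier spots (population and non-uniform) were left out, 66 on the standard and 70 on the enriched array. No spot was saturated, and 77.2% and 77.4% were well above background. Spots of a probe, then the probes of a gene well above background on both arrays, were averaged. Of 41174 probes 22951 were named through RefSeq accessions of GRCm38.p6 and 18223 kept the file's name. Probe positions are on mm7; exon annotation of that build was not used here. Threshold: 2-fold. The bound for Bcl2l10 sets its level against the lowest level well above background on the other array, -5.68. Normexp used limma 3.58.1 with an offset of 50. The steps were tested on simulated data. The members, lists and alternatives were chosen with earlier results of these data known. All members were named, and in each list the 3 largest differences and any of at least 2-fold.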

Additional observations from a re-analysis of the deposited data

How the results depend on the processing

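With 1 array per pool, 12 other processings were tried, the one without the opposite-strand Bad probe chosen after seeing the data. Non-uniform spots were left out from the start, so the setting tried was keeping them. No paired analysis was possible because each group has 1 array and no result comes from a test. Without scaling, the survival, effector and BH3-only medians were 0.57, 0.59 and 1.01, and 3 of 10 members were at least 2-fold apart, where 19.7% of all genes were; the shift of 0.39 applies to every gene. With the normexp background model the BH3-only median was 0.36 and its gap to the survival median 0.13. With the brightest probe of each gene, and without the opposite-strand Bad probe, 2 of 10 members were at least 2-fold apart, beside 15.7% and 15.2% of all genes. Of 456 values of 38 named genes, 394 moved by less than 0.17, the median SD between probes of a gene. The other 62 moved further, 38 of them without scaling, and no difference of at least 2-fold changed sign. Many of the 394 could not move: choosing among probes leaves a gene with 1 probe as it was, and leaving out the Bad probe changes only Bad. Their share is therefore no measure of how firm the values are. The normexp model took Tnfrsf10b to 0.91 and Gtse1 to 0.83, both under 2-fold, and Pmaip1 to 1.46. Low signal over background limits dim probes such as those of Bad, Hrk, Xiap and Fasl, and the number of arrays limits every value.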
